A study of Mus musculus with 6 samples.

Results

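Carboxylesterases are enzymes that cleave ester and amide bonds in drugs, other foreign compounds and lipids. The genes described here are 10 mouse carboxylesterases of the liver, Ces1b, Ces1c, Ces1d, Ces1e, Ces1f, Ces1g, Ces2a, Ces2e, Ces3a and Ces3b. They were taken by symbol from a count table of 54532 genes with an Ensembl identifier, which holds 20 genes annotated with a Ces symbol. All 10 listed genes and 3 of the other 10 Ces genes passed the filter on low counts. In HFD+allantoin livers, Ces1d, Ces1g, Ces2e, Ces1e and Ces1f were called higher than in HFD livers (edgeR, adjusted p under 0.05). None of the 10 genes was called lower, although DESeq2 called Ces3a lower. Over all tested genes, 11.3% were called higher and 13.0% lower (edgeR). The calls of Ces1e and Ces1f lay close to the threshold and were lost in most fits that left out 1 library.

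Liver RNA was sequenced from 3 mice fed a high-fat diet (HFD) and 3 mice fed the same diet with allantoin (HFD+allantoin). All were wild-type male C57BL/6J mice that entered the experiment at 8 weeks of age and received the diet for 4 weeks and then for a further 4 weeks, during which the HFD+allantoin mice drank water with allantoin, the oxidation product of uric acid. The labels name a pair of doses without assigning either to a library, and the dose of 0.3 mg/mL is taken from the study's text. There was no group on normal chow among these libraries, so every difference is between mice on the same diet, and nothing in the labels ties a library to a batch or date. The labels do not say outright that each library is a separate animal, and the p-values measure the spread between the libraries.

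The libraries held 11326372 to 14601457 counts. Counts were scaled with TMM factors of 0.756 to 0.951 in HFD and 1.12 to 1.19 in HFD+allantoin libraries. Expression is given in CPM, counts scaled to a common library size. Genes of the mitochondrial chromosome held 17.9% to 36.5% of the counts in HFD and 6.92% to 11.4% in HFD+allantoin libraries. Hepatocyte markers were abundant in all 6 libraries, with 9 markers summing to 89282 to 90992 CPM in HFD and 71510 to 99811 CPM in HFD+allantoin livers. Most of that sum was Alb, at 55939 to 62025 CPM in HFD and 54402 to 82145 CPM in HFD+allantoin livers. Single hepatocyte markers moved both ways. Cps1 was called higher (1.05), whereas Apoa1 (-1.23) and Ttr (-0.79) were called lower (log2 fold changes, edgeR). Over the 9 hepatocyte markers the median was -0.47. HFD replicate 2 stood apart in adipocyte markers, with 520 counts of Adipoq and 498 of Plin1 where the other 5 libraries held 0 or 1 count of each. HFD replicate 3 had the highest sum of cholangiocyte markers, 159 CPM against 43.1 and 34.3 CPM in HFD replicates 1 and 2. Its erythroid markers summed to 332 CPM against 1333 and 1165 CPM. Of the adipocyte and cholangiocyte markers, Adrb3 (-3.46) and Sox9 (-3.17) were called lower and none higher (log2 fold changes, edgeR). Summed markers of hepatic stellate cells ran from 151 to 221 CPM in HFD and from 341 to 419 CPM in HFD+allantoin livers, and those of macrophages from 110 to 262 CPM and from 305 to 343 CPM. Of these markers, 6 of 8 stellate and 3 of 8 macrophage genes were called higher and none lower, and 0 of 6 endothelial markers were called. These shifts moved with the groups in which the carboxylesterases were compared, and their part in the results was not tested. In whole liver, fewer cells of a type and less RNA per cell cannot be told apart.

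Mouse carboxylesterases lie side by side on chromosome 8, where repeated gene duplication has given the mouse many more copies than humans have. Most are glycoproteins that enter the endoplasmic reticulum (ER), and the last residues of the chain set their fate. A chain ending in the signal His-any-Glu-Leu is retained in the ER lumen, where it meets drugs and the stored and secreted lipids of the hepatocyte, whereas a chain without a retention signal can be secreted into blood. In the liver they are known for drug hydrolysis, for the turnover of triacylglycerol and cholesteryl ester stores, and for supplying lipid to very-low-density lipoprotein (VLDL).

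In the annotation (GENCODE release M21 on GRCm38), the 6 Ces1 genes occupy the minus strand of chromosome 8 between positions 93056728 and 93337308, and the Ces2 and Ces3 genes the plus strand between positions 104734003 and 105093929. The coding ends are shown because they separate the members that keep the retention signal from those that do not. Each line gives the last 30 bases before the stop codon and the stop codon itself, on the coding strand, with the last 4 codons in capitals.
Ces1b: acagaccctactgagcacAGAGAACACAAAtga
Ces1c: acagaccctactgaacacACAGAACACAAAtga
Ces1d: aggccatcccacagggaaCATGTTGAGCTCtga
Ces1e: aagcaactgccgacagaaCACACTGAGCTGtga
Ces1f: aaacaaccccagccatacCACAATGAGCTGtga
Ces1g: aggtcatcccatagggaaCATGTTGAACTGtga
Ces2a: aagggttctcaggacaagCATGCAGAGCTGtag
Ces2e: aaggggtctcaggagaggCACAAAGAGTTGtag
Ces3a: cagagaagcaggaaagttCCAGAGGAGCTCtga
Ces3b: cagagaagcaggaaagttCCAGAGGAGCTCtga

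In 6 of the 10 members, Ces1d, Ces1e, Ces1f, Ces1g, Ces2a and Ces2e, the capitals read as a histidine codon, any codon, a glutamate codon and a leucine codon. Ces1b and Ces1c end in a histidine and a lysine codon and lack the signal. Ces3a and Ces3b, whose printed ends are identical, keep the glutamate and leucine codons but begin the last 4 with a proline codon. The signal was also present in 5 of the other 9 Ces genes with a coding transcript.

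The retained esterase Ces1d, also called triacylglycerol hydrolase, acts on stored lipid in hepatocytes and adipocytes. Ces1d (ENSMUSG00000056973, chr8:93166068-93197838, minus strand) held 92.6, 251 and 215 CPM in HFD replicates 1 to 3 and 570, 624 and 451 CPM in HFD+allantoin replicates 4 to 6. The lowest HFD+allantoin library was above the highest HFD library, and HFD replicate 1 was the lowest of all. The mean rose from 186 ± 83.2 to 549 ± 88.5 CPM (SD, n = 3 each), a 2.95-fold difference, with a log2 fold change of 1.56 (edgeR, adjusted p = 0.0125, standard error 0.34 quasi-likelihood test with Benjamini-Hochberg adjustment over 12795 genes). Without HFD replicate 2, the library with adipocyte markers, the log2 fold change was 1.84 (adjusted p = 0.0131, edgeR). Without HFD replicate 1, where genes of the mitochondrial chromosome held 36.5% of the counts, it was 1.23 (adjusted p = 0.00806, edgeR). Without HFD+allantoin replicate 5 it was 1.46, and the call was lost (adjusted p = 0.0558, edgeR).

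Ces1g, known as esterase-x, limits lipid storage and VLDL output in mouse liver. Ces1g (ENSMUSG00000057074, chr8:93302369-93337308, minus strand) held 58.0, 68.6 and 86.4 CPM in the HFD libraries and 176, 226 and 227 CPM in the HFD+allantoin libraries. The groups were far apart, with the highest HFD library below the lowest HFD+allantoin library. The mean rose from 71.0 ± 14.4 to 209 ± 29.3 CPM (SD, n = 3 each), with a log2 fold change of 1.56 (edgeR, adjusted p = 0.00319, standard error 0.20). It was the member with the smallest adjusted p and was called in all 17 alternative fits, including each that left out 1 library.

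Ces2e belongs to the Ces2 cluster, whose enzymes are expressed in liver and intestine. Ces2e (ENSMUSG00000031886, chr8:104926260-104934672, plus strand) held 56.6, 91.6 and 113 CPM in the HFD and 174, 163 and 256 CPM in the HFD+allantoin libraries. HFD+allantoin replicate 6 was the highest, and the groups did not overlap. The mean rose from 86.9 ± 28.3 to 197 ± 50.8 CPM (SD, n = 3 each), with a log2 fold change of 1.18 (edgeR, adjusted p = 0.0170, standard error 0.28). Without HFD+allantoin replicate 6 the log2 fold change was 0.96 and the call was lost (adjusted p = 0.0666, edgeR). The 6 enterocyte markers summed to 385 to 879 CPM in HFD and 463 to 771 CPM in HFD+allantoin livers, and none was called. Fabp2 (1583 to 3526 counts) and Apoa4 (2314 to 7897 counts), which the liver also makes, held nearly all of this, while Vil1, Sis, Lct and Alpi held at most 4 counts in any library.

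Ces1e, or egasyn, anchors beta-glucuronidase in the ER, and Ces1f is a second triacylglycerol hydrolase of hepatocytes. Ces1e (ENSMUSG00000061959, chr8:93201218-93229619, minus strand) held 60.04, 71.3 and 72.8 CPM in the HFD and 99.4, 95.4 and 98.3 CPM in the HFD+allantoin libraries, a log2 fold change of 0.52 (edgeR, adjusted p = 0.0380, standard error 0.15). Ces1f (ENSMUSG00000031725, chr8:93256236-93279747, minus strand) held 235, 286 and 263 CPM in the HFD and 383, 360 and 367 CPM in the HFD+allantoin libraries, a log2 fold change of 0.50 (edgeR, adjusted p = 0.0448, standard error 0.16). Both genes were tightly grouped within HFD+allantoin, and in neither did the groups overlap. Their calls lay close to the threshold. On 5 libraries, the call of Ces1f was lost in every fit. That of Ces1e was lost in all but the fit without HFD replicate 3 (adjusted p = 0.0316, edgeR). Without HFD replicate 2 the adjusted p was 0.0609 for Ces1e and 0.0564 for Ces1f (edgeR), with log2 fold changes of 0.56 and 0.57.

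Ces1c encodes the secreted plasma esterase of mice, and Ces1b is its closest relative. Ces1c (ENSMUSG00000057400, chr8:93099015-93131283, minus strand) held 1409, 1652 and 1362 CPM in the HFD and 1357, 1662 and 1476 CPM in the HFD+allantoin libraries. The groups lay on top of each other, with a log2 fold change of 0.02 (edgeR, adjusted p = 0.939, standard error 0.18). Ces1b (ENSMUSG00000078964, chr8:93056728-93080017, minus strand) held 102, 67.7 and 46.4 CPM in the HFD and 40.0, 66.7 and 62.9 CPM in the HFD+allantoin libraries. Its HFD libraries spread over a wider range than its HFD+allantoin libraries and the groups overlapped (log2 fold change -0.35, standard error 0.30, adjusted p = 0.427, edgeR). Without HFD replicate 1, its highest library, the log2 fold change of Ces1b was -0.01.

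Ces2a (ENSMUSG00000055730, chr8:104734003-104741634, plus strand), which hydrolyses acylglycerols as well as drugs, held 128, 174 and 116 CPM in the HFD and 133, 154 and 114 CPM in the HFD+allantoin libraries. The groups overlapped, with a log2 fold change of -0.06 (edgeR, adjusted p = 0.855, standard error 0.20). Ces2a was the only member with the retention signal that was not called.

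The Ces3 genes are abundant in mouse liver. Ces3a (ENSMUSG00000069922, chr8:105048601-105058413, plus strand) held 2626, 3131 and 1876 CPM in the HFD and 1633, 1790.3 and 1493 CPM in the HFD+allantoin libraries. Every HFD library was above every HFD+allantoin library, but the log2 fold change of -0.63 (standard error 0.22) missed the threshold (adjusted p = 0.0653, edgeR). Ces3b (ENSMUSG00000062181, chr8:105083753-105093929, plus strand) held 377, 695 and 374 CPM in the HFD and 350, 359 and 223 CPM in the HFD+allantoin libraries, also without overlap (log2 fold change -0.63, standard error 0.29, adjusted p = 0.139, edgeR). Ces3b was highest in HFD replicate 2, without which its log2 fold change was -0.27. Ces3a was called lower without HFD replicate 3 (log2 fold change -0.81, adjusted p = 0.0193, edgeR) and by DESeq2 (-0.60, adjusted p = 0.0247).

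**Figure D1:**
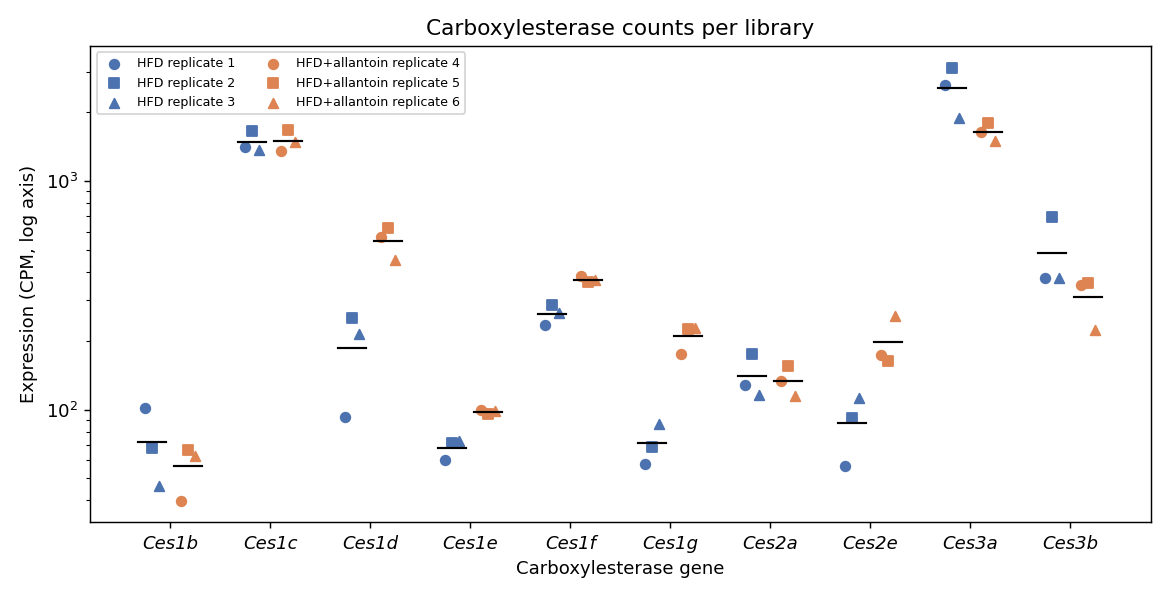
Expression of the 10 carboxylesterase genes in each library, in CPM on a log axis, with HFD in blue, HFD+allantoin in orange, a symbol per replicate and a black line at the group mean. Ces1d, Ces1e, Ces1f, Ces1g and Ces2e are higher in every HFD+allantoin library than in any HFD library, Ces3a and Ces3b are lower, and Ces1b, Ces1c and Ces2a overlap.

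Thus 5 of the 10 members were called higher and 0 lower by edgeR (adjusted p under 0.05), where 11.3% of all tested genes were called higher and 13.0% lower. Ces3a, which was lower, had an unadjusted p of 0.0186 (edgeR), and DESeq2 called 1 member lower. The groups did not overlap in 5 members that were higher, against 22.4% of all tested genes, and in 2 that were lower, against 21.9%. The median log2 fold change was 0.26 over the 10 members and -0.03 over the 12795 tested genes. The count of members called higher was 3 without HFD replicate 1, 3 without HFD replicate 2, 3 without HFD+allantoin replicate 4 and 2 without either of HFD+allantoin replicates 5 and 6. With scaling by library size only, the median log2 fold change over all tested genes was 0.38 in place of -0.03. With it, 3162 genes were higher and 674 lower in place of 1446 and 1666, and the same 5 members were called. Under that scaling, Ces1b (0.11) and Ces2a (0.36) turned positive.

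**Figure D2:**
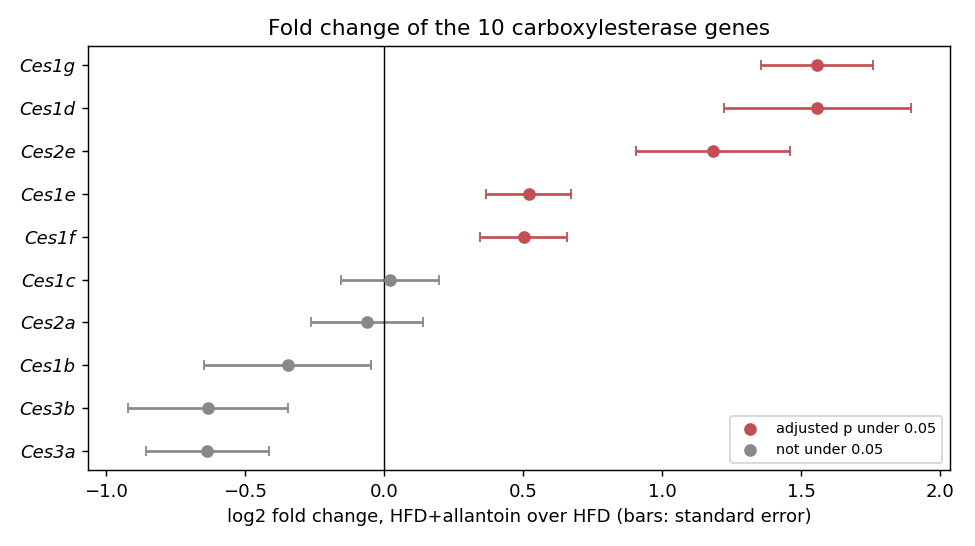
Log2 fold change of HFD+allantoin over HFD for each gene, with bars for the standard error from edgeR, red where the adjusted p was under 0.05. The called genes run from 0.50 for Ces1f to 1.56 for Ces1g and Ces1d, and the lowest values are -0.63 for Ces3a and Ces3b.

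Set beside the coding ends, 5 of the 6 members with the retention signal and 0 of the 4 members without it were called higher. Log2 fold changes ran from -0.06 to 1.56 among the former and from -0.63 to 0.02 among the latter. Over all tested genes 11.3% were called higher, so 0 of 4 lay near the background share. The grouping by retention signal was made after the values were seen and is a description. Among the other Ces genes tested, Ces2c and Ces2g carry the signal and Ces4a does not. Ces2g (15.4, 19.6 and 20.1 CPM in HFD, 27.0, 26.3 and 38.3 CPM in HFD+allantoin) was called higher, by 0.73 on the log2 scale (edgeR, adjusted p = 0.0315). That call was lost in 5 of the 6 fits that left out 1 library, all except the fit without HFD replicate 3, with adjusted p-values of 0.0502 to 0.122 (edgeR). Ces2c, a hydrolase of di- and triacylglycerols, had a log2 fold change of 0.87 that missed the threshold (adjusted p = 0.0547, edgeR), with 11.6, 23.9 and 14.5 CPM in HFD and 22.9, 36.03 and 32.1 CPM in HFD+allantoin, which overlapped. Ces4a was near the limit of the filter, at 1.12 to 4.25 CPM, with a log2 value of -0.999 (adjusted p = 0.126, edgeR).

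The relative make-up of the family was compared per kilobase of merged exons, since longer transcripts collect more reads. On that scale Ces3a and Ces1c together dominated, with means of 969 ± 240.3 and 635 ± 67.1 CPM per kb in HFD (SD, n = 3 each) against 29.7 ± 6.02 for Ces1g. The order was led by Ces3a in all 3 HFD libraries and in HFD+allantoin replicate 4, and by Ces1c in HFD+allantoin replicates 5 and 6. Ces1d stood at rank 7, 4 and 4 in the HFD libraries and at rank 3 in each HFD+allantoin library. Ces1d at 78.6 ± 35.1 and Ces1f at 79.5 ± 7.75 CPM per kb were neighbours in HFD that differed by less than their spread, as did Ces1e (31.1 ± 3.19), Ces2e (32.2 ± 10.5), Ces1g and Ces1b (36.6 ± 14.2). Ces3b (188 ± 71.96) and Ces2a (59.2 ± 13.0) completed the HFD order, and Ces2a also lay within the spread of Ces1d. In HFD+allantoin, Ces1c (645 ± 66.2) and Ces3a (624 ± 56.7) could not be ranked within their spread, and Ces1d followed at 232 ± 37.4 CPM per kb. Below them, Ces3b (121 ± 29.6) and Ces1f (113 ± 3.63) were neighbours within their spread, as were Ces1g (87.7 ± 12.3) and Ces2e (73.2 ± 18.8). Ces2a (56.7 ± 8.54) also lay within the spread of Ces2e and ranked above it in HFD+allantoin replicate 5. Ces1e (44.6 ± 0.95) and Ces1b (28.8 ± 7.37) came last. The sum over all 10 members was 2138 ± 394 CPM per kb in HFD and 2025 ± 160 in HFD+allantoin, a difference smaller than the spread between HFD libraries. With library size only in place of TMM, the sum was 1851 ± 400.3 in HFD and 2342 ± 218 in HFD+allantoin, so the direction of the summed level rests on the scaling.

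Within that sum, Ces1 members made up 40.2%, 38.9% and 47.2% in the HFD libraries and 55.1%, 57.1% and 58.2% in the HFD+allantoin libraries. Ces2 members made up 3.68%, 4.19% and 5.05%, then 6.16%, 5.69% and 7.500%. Ces3 members made up 56.1%, 56.9% and 47.8%, then 38.7%, 37.2% and 34.3%. For each of the 3 clusters the groups did not overlap. Shares add to 100%, so these separations are not independent and do not show which cluster changed in level. A share within a library does not depend on how libraries were scaled. The share of Ces1d alone went from 3.69% ± 1.60 to 11.4% ± 1.24 and that of Ces3a from 45.0% ± 4.79 to 30.8% ± 0.97 (SD, n = 3 each), while Ces1c held 29.97% ± 2.45 and 31.8% ± 1.82.

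**Figure D3:**
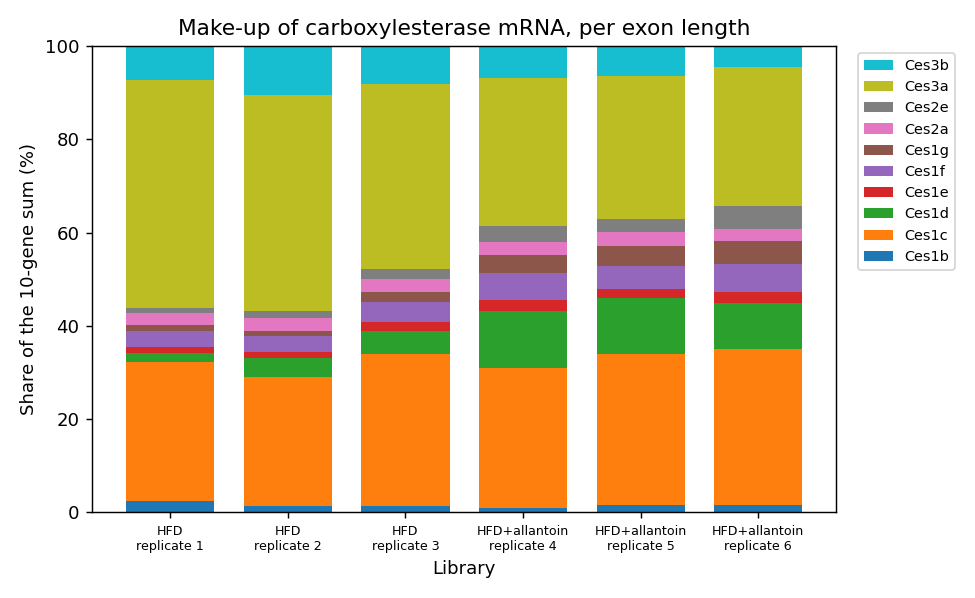
Share of each gene in the sum of the 10 carboxylesterases in each library, from counts per kilobase of merged exons, as stacked bars that add to 100%. Ces3a takes 39.7% to 48.9% of the bar in HFD and 29.8% to 31.7% in HFD+allantoin, and Ces1d widens from 1.91% to 5.03% to between 9.98% and 12.3%.

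Ratios of counts within a library, which also need no scaling, were set side by side for 7 pairs chosen after the values were seen. Ces1d over Ces3a was 0.0353, 0.0803 and 0.114 in the HFD libraries and 0.349, 0.349 and 0.302 in the HFD+allantoin libraries. Ces1g over Ces1c, a gene of the same cluster, was 0.0411, 0.0415 and 0.0635, then 0.129, 0.136 and 0.153. Ces2e over its paralog Ces2a was 0.442, 0.525 and 0.968, then 1.31, 1.05 and 2.24. For these 3 pairs, and for Ces1d, Ces1e and Ces1f over Ces1c, the groups did not overlap. In each, a called gene was set over a gene not called, so the separation restates their fold changes. Ces3b over Ces3a was 0.144, 0.222 and 0.200 in HFD and 0.215, 0.201 and 0.150 in HFD+allantoin, which overlapped.

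Reads can be shared between near copies. The Ces3a and Ces3b transcripts were 95.4% identical over 2046 aligned bases, and 30.9% and 26.1% of their 50-base windows occurred unchanged in another gene. The windows shared with other genes came to 22.2% for Ces2a, of which 507 bases aligned at 95.5% identity with the pseudogene Gm7208, 17.0% for Ces1c and 11.6% for Ces1b. The share was 1.28% for Ces1d, 3.21% for Ces1e, 1.60% for Ces1f, 1.67% for Ces1g and 3.36% for Ces2e, so the 5 called members were the ones with few shared windows. The members without the retention signal, and Ces2a, held the larger shares. What this sharing does to the calls was not tested. How the authors assigned reads that match several genes is not given in the sources used here, and the separate values of Ces3a and Ces3b are uncertain for that reason. Over the coding sequence, pairs of Ces1 members were 74.6% to 91.2% identical (median 78.7%, 15 pairs, Ces1b and Ces1c the closest), Ces2a and Ces2e 83.8%, and Ces3a and Ces3b 95.3%.

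RefSeq promoters on GRCm38.p6, each 250 bases before to 50 after a start, were found for 7 of the 10 members. Those of Ces1c and Ces1g and of Ces2a and Ces2e are printed, because in each pair of paralogs 1 gene was called higher and the other was not. Capitals mark matches, on either strand, to any of 8 short motifs. The nuclear receptor half-site was searched as AGGTCA, and the box that places the start of transcription as TATAAA. The motif bound by the NF-Y complex was searched as CCAAT, and the GC-rich site of the Sp family as GGGCGG. The sites of liver factors were searched as CAAAGTCCA for HNF4, as GTTAAT for HNF1 and as TGTTTAC for FOXA proteins, and the site of C/EBP proteins as TTGCNNAA.
Ces1c, chr8:93131234-93131533, minus strand: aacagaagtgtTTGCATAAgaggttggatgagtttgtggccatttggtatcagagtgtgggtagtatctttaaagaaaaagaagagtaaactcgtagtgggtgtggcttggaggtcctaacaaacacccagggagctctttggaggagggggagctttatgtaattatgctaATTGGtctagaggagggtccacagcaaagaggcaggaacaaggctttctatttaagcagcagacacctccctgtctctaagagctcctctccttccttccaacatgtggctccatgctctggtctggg
Ces1g, chr8:93337160-93337459, minus strand: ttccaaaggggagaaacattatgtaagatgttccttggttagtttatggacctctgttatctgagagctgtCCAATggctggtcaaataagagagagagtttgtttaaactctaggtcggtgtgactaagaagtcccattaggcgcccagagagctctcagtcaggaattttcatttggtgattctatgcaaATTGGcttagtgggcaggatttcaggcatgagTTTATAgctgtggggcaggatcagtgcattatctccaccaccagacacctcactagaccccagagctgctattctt
Ces2a, chr8:104733753-104734052, plus strand: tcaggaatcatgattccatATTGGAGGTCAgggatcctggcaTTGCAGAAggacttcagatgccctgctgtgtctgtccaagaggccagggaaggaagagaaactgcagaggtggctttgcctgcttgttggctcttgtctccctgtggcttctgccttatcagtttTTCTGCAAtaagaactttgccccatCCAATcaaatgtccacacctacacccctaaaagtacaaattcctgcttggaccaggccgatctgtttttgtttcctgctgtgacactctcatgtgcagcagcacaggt
Ces2e, chr8:104926010-104926309, plus strand: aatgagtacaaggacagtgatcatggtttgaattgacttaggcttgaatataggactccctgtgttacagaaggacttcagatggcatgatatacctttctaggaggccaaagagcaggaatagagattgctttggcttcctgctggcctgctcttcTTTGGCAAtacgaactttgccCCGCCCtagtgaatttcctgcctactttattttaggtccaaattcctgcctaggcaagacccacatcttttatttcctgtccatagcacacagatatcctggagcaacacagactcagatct

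The Ces1g window held CCAAT matches starting at positions -179 and -58 from the start. Its TATAAA match at -26 lay on the opposite strand and reads TTTATA in the printed sequence. The Ces1c window held a CCAAT match at -78 and a C/EBP-like match at -239. In Ces2a, C/EBP-like matches lay at -208 and -83 and CCAAT matches at -231 and -58, the first directly followed by a nuclear receptor half-site. In Ces2e, a C/EBP-like match lay at -93 and a GC box at -72. Of all 32851 promoters of this length in the table, 13.6% held TATAAA, 37.4% CCAAT, 16.3% AGGTCA, 35.7% GGGCGG and 10.8% TTGCNNAA. The Ces1c and Ces1b windows were 93.4% identical where they aligned, the Ces1c and Ces1g windows 67.3%, and the Ces2a and Ces2e windows 69.4%. Windows of different clusters ranged from 55.5% (a Ces1b window and Ces3b) to 67.1% (Ces1e and Ces3b).

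Other hydrolases, genes of VLDL assembly and transcription factors were read from 4 lists. Of 64 tested genes over these lists, 16 were called higher and 7 lower, beside 11.3% and 13.0% of all tested genes, and their median log2 fold change was 0.04. Among neutral lipid and ester hydrolases and their cofactors, 5 of 21 tested genes were called higher and 2 lower (median 0.04). The called genes with the smallest p were Lipg (2.37), the endothelial lipase, Nceh1 (1.10), which hydrolyses cholesteryl esters, and Pnpla8 (1.04), a phospholipase, all higher, and Ddhd1 (-0.97), another phospholipase, and Dagla (-1.83), a diacylglycerol lipase, both lower (log2 fold changes, edgeR). The count of 5 stood in each fit that left out 1 library, and the count of 2 was 1 without HFD replicate 1 or HFD+allantoin replicate 6 and 0 without HFD+allantoin replicate 4 or 5. Among other drug and xenobiotic hydrolases, 3 of 15 were called higher and 0 lower (median 0.03). These were Bche (1.24), the serum butyrylcholinesterase made by the liver, Afmid (1.002), an arylformamidase, and Pon2 (0.86), a lactonase. Afmid lay close to the threshold (adjusted p = 0.0498, edgeR), and its groups overlapped. The count of 3 was 1 without HFD+allantoin replicate 4 and 0 without replicate 5. Bche held 58.3, 69.2 and 114 CPM in HFD and 160.0, 197 and 215 CPM in HFD+allantoin.

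Genes of VLDL assembly and secretion, the pathway that takes up lipid released by Ces1 enzymes, were called in both directions, with 3 of 14 called higher and 4 lower (median -0.17). Apob, the structural protein of VLDL, had a log2 fold change of 0.92, Mttp, which loads lipid onto it, 0.62, and Dgat2, which makes triacylglycerol, 0.57, all higher (edgeR). Apoc3, an apolipoprotein that slows triacylglycerol clearance, went from 3361, 2841 and 3074 CPM in HFD to 1156, 995 and 962 CPM in HFD+allantoin (log2 fold change -1.58, adjusted p = 0.00242, edgeR). Arfrp1 (-0.93) and Smlr1 (-0.82), which take part in lipoprotein export, were also lower. These counts changed when 1 library was left out. The count called higher was 4 without HFD replicate 3 and 0 without any one of the other 5 libraries, and the count called lower was 2 without HFD+allantoin replicate 4 and 1 without replicate 5 or 6.

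Among transcription factors of hepatic drug and lipid metabolism, 5 of 15 were called higher and 1 lower (median 0.27). Ppara, the fatty acid receptor, held 39.1, 27.4 and 18.9 CPM in HFD and 109, 146 and 91.4 CPM in HFD+allantoin (log2 fold change 2.02, standard error 0.29, adjusted p = 0.00389, edgeR). Its partner Rxra (0.92) and the glucocorticoid receptor Nr3c1 (0.60) were higher, and Nr0b2, a repressor induced by bile acids, was lower (-1.81). The count called higher was 3 without HFD replicate 1 or 2 and 2 without any one of the HFD+allantoin libraries, and the count called lower was 2 without HFD replicate 2. The median of every list lay between -0.17 and 0.27, beside -0.03 for all tested genes, and whether any of these factors acts on a carboxylesterase gene cannot be read from these counts.

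**Figure D4:**
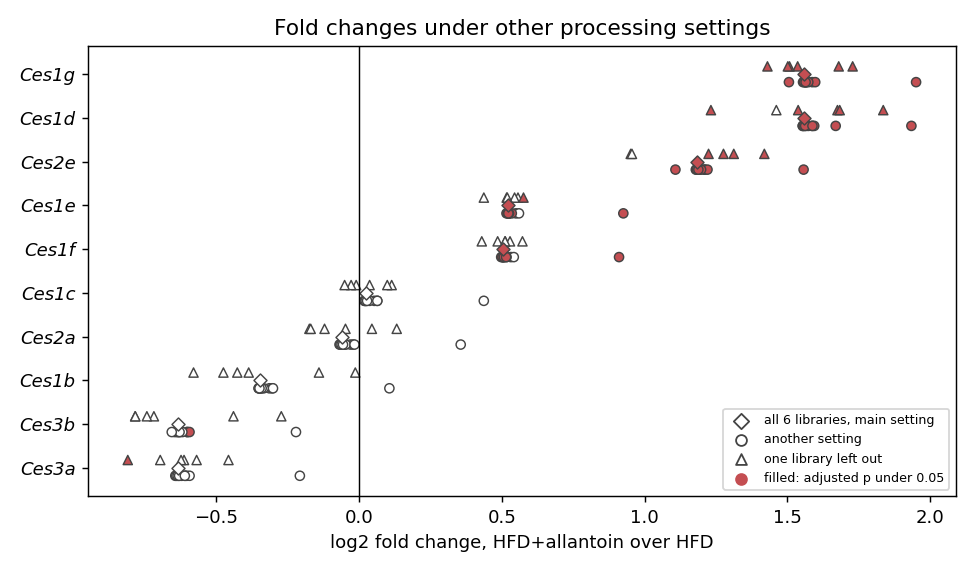
Log2 fold change of each carboxylesterase gene under the main setting (diamond), under other settings (circles) and with 1 library left out (triangles), filled red where the adjusted p was under 0.05. Ces1g is filled throughout, Ces1d and Ces2e lose 1 call each, Ces1e and Ces1f keep 11 and 9 of 17, and the isolated circles to the right of each row are the scaling by library size only.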

How the data were processed

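Messenger RNA libraries from whole liver were sequenced on an Illumina instrument. The authors deposited raw counts per gene, whole numbers that were not normalized. GRCm38 and mm10 are named in the submitters' processing notes, and the aligner, counting tool and strand setting are not given in the sources used here. A set of 429 features without an Ensembl identifier (0.197% to 0.306% of counts) was left out. Counts were filtered with filterByExpr, TMM-normalized and tested with edgeR 4.0.16 (R 4.3.3), by the quasi-likelihood test with Benjamini-Hochberg adjustment over 12795 genes and group as the only term. Called means an adjusted p under 0.05. The procedure was tested on simulated data with planted changes larger than that of any member, so changes of the members' size were not covered. Near-identical transcripts were searched with BLAST 2.17.0 (at least 95% identity over 200 bases). The members and lists were chosen with earlier results of these data known. All members and tested Ces genes are named, and per list the 3 called genes with the smallest p in each direction (of neighbouring genes, the 3 with the smallest p). DESeq2 1.42.0, limma-voom (limma 3.58.1), other scalings, filters and thresholds and leaving out each library were the alternatives. With 3 against 3 libraries an exact permutation test cannot give a p below 0.1.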

Additional observations from a re-analysis of the deposited data

How the results depend on the processing

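Each member's fold change was recomputed under 17 alternatives, and members called, other Ces genes called and list genes called under 19. No paired analysis was possible because the groups share no replicate numbers. Ces1g kept its call throughout, and Ces1d and Ces2e lost theirs only without HFD+allantoin replicate 5 and replicate 6. Leaving out 1 library gave log2 fold changes of 1.23 to 1.84 for Ces1d, 0.95 to 1.42 for Ces2e, -0.58 to -0.01 for Ces1b, 0.44 to 0.58 for Ces1e, 0.43 to 0.57 for Ces1f, -0.81 to -0.46 for Ces3a, -0.051 to 0.11 for Ces1c and -0.17 to 0.13 for Ces2a. The sign of Ces1c turned without HFD replicate 1 (-0.01), HFD replicate 3 (-0.03) and HFD+allantoin replicate 5 (-0.051), and that of Ces2a without HFD replicate 2 (0.13) and HFD+allantoin replicate 6 (0.04). With no filter, Ces1e (0.56) and Ces1f (0.54) lost their calls (adjusted p = 0.0552 and 0.0703, edgeR), Ces3b (-0.59) gained one (adjusted p = 0.0417), and 3 members were higher and 1 lower. Upper-quartile scaling ended the call of Ces1f (0.50, adjusted p = 0.0566). DESeq2 called Ces3a lower (-0.60), so that 1 member was lower, as was the case without HFD replicate 3. Scaling by library size only turned Ces1b to 0.11 and Ces2a to 0.36.

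Members called higher ranged from 2 to 4 and lower from 0 to 1 with 1 library left out, other Ces genes higher from 0 to 1 and lower from 0 to 1, list genes higher from 7 to 15 and lower from 2 to 7, and all genes higher from 460 to 1773 and lower from 564 to 2008. At an adjusted p under 0.01, 1 member, 0 other Ces genes, 7 list genes and 443 genes were higher, and 3 list genes and 573 genes lower. With an absolute log2 fold change above 1 as well, 3 members, 0 other Ces genes, 8 list genes and 722 genes were higher, and 3 list genes and 974 genes lower. Library size only gave 26 list genes higher and 2 lower, and 3162 genes higher and 674 lower. Other Ces genes called higher numbered 2 with DESeq2, with limma-voom, with library size only, without the filter, with a minimum of 10 counts per library, and with the length and GC trend removed, and 1, Ces2d-ps, was called lower with no filter and without HFD replicate 2. The cause of these changes was not tested, apart from the fewer libraries or stricter thresholds that some settings impose by construction. With the longest transcript for length, the shares of the Ces1, Ces2 and Ces3 clusters moved by less than the spread between libraries, but shares of single genes moved by more, that of Ces1f to 5.14% in HFD and 7.66% in HFD+allantoin and that of Ces1g to 3.48% in HFD+allantoin, and the summed level was 2682 and 2521 CPM per kb.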

Other observations

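Of the Ces genes that did not reach the filter, Ces2d-ps varied the most within a group. Ces2d-ps, a pseudogene of the Ces2 cluster, held 48, 0 and 159 counts in the HFD and 8, 3 and 5 counts in the HFD+allantoin libraries, so that HFD replicates 1 and 3 held nearly all of its counts and HFD replicate 2 held none. Ces2b held 1, 4 and 1 counts in HFD and 1, 17 and 16 counts in HFD+allantoin libraries. Ces2f and Ces5a were at 0 counts in all 6 libraries.

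Of the non-Ces genes within 500 kb of a member, 31 were tested, and 3 were called higher and 4 lower (edgeR), with a median log2 fold change of -0.41. These counts are near the background of 11.3% higher and 13.0% lower over all tested genes. Those with the smallest p were Cmtm4 (1.66), Ciao2b (-0.93) and Cklf (-2.12). Gm45909 lies within Ces1d on the same strand without sharing exonic bases, and its 0.00, 0.59 and 0.17 CPM in HFD and 2.27, 1.36 and 1.012 CPM in HFD+allantoin libraries (log2 fold change 2.55, adjusted p = 0.0488, edgeR) moved in the direction of Ces1d. Gm45909 falls outside the rule for named genes and was singled out after its values were seen.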
